A study of Mus musculus with 12 samples.

Results

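Leydig cell steroidogenesis was followed through 10 genes, Star, Cyp11a1, Cyp17a1, Hsd3b1, Hsd3b6, Hsd17b3, Insl3, Lhcgr, Nr5a1 and Scarb1, out of the 20718 genes measured by RNA-seq in whole mouse testis. The genes were taken by symbol, and all 10 were in the table, each in 1 row. The libraries came from testes of F0 mice that had been injected with lentivirus to lower or raise lncRNA5251, a long non-coding RNA. There were 4 groups of 3 libraries each, 12 in all. The study asked what this lncRNA does in spermatogenesis. By western blot it also reported more CYP11A1 protein in F0 testes after knockdown. The comparisons here followed the RNA, and not the protein, of genes of the hormone-producing cells.

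Short hairpin RNAs against lncRNA5251, carried by the LV3 backbone, were given to the F0_5251KD group, and the negative control of LV3 to the F0_3NC group. In the F0_5251OV group the virus carried the full lncRNA5251 in the LV5 backbone, and in the F0_5NC group it was LV5 with no insert. All 4 groups were wild-type male mice, named IRC in the labels and ICR in the methods. Every group was injected into the testes at 4 weeks of age, was kept for 5 weeks, was mated at 9 weeks for 4 days and was collected after 4 more days. Hence each group carried a lentivirus and none was an uninjected testis. The sources do not say which testis cells took up the virus, and nothing in the labels ties the 3 replicates to different animals, so p-values measure only the spread between these libraries. The backbone, and anything handled together with it, cannot be told apart in the comparison of F0_3NC with F0_5NC. No row of the table is named for lncRNA5251 and its level was not analysed here.

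Leydig cells lie between the seminiferous tubules and make testosterone from cholesterol. Luteinizing hormone binds its receptor (Lhcgr) and raises cyclic AMP, and the transcription factor steroidogenic factor 1 (Nr5a1) is needed for the steroid genes to be transcribed. Cholesterol enters the cell through the lipoprotein receptor Scarb1, is carried into the mitochondrion with the help of Star, and is cut to pregnenolone by Cyp11a1. Hsd3b1 and Hsd3b6 are the 3-beta-hydroxysteroid dehydrogenases, Cyp17a1 is the hydroxylase and lyase that gives androgens, and Hsd17b3 makes testosterone as the last step. Insl3 is a peptide hormone of Leydig cells that acts in testis descent and marks mature Leydig cells.

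The pair Hsd3b1 and Hsd3b6 is shown first by sequence, because the enzymes are so alike that reads could be shared between them. The genes are neighbours on the minus strand of chromosome 3 (GRCm38.p6), Hsd3b6 at chr3:98805504-98814443 and Hsd3b1 at chr3:98842356-98859794. Their coding sequences in GENCODE M21 are 1119 bases each, are identical at 1007 positions (90%) and share no identical run over 72 bases. Of the 1070 windows of 50 bases in Hsd3b6, 38 (3.6%) are found whole in Hsd3b1, and the counts of both genes were whole numbers in all 12 libraries. The study's alignment allowed mismatches, so reads from windows that differ at a few bases could be shared too. Bases outside the coding sequence were not compared. The stretch of 90 coding bases in which they differ most, coding bases 64 to 153, has 19 differences, which are in capitals.
Hsd3b1: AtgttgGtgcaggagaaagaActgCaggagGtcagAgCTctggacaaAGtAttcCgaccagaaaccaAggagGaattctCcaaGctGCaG
Hsd3b6: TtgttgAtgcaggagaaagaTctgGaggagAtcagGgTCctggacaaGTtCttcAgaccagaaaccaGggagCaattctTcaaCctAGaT
The 120 bases just upstream of the 2 start sites, at chr3:98859795-98859914 for Hsd3b1 and chr3:98814444-98814563 for Hsd3b6 (minus strand, RefSeq), are shown for the same pair.
Hsd3b1: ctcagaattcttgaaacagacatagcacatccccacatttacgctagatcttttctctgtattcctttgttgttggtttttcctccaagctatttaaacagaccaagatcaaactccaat
Hsd3b6: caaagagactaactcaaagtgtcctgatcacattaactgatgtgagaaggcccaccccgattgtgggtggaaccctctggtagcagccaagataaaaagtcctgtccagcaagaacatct

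Nr5a1 encodes the factor that binds steroid gene promoters, so the promoters of the members were searched for the letters it is known to prefer. RefSeq had 7 promoters of 6 members (Cyp11a1, Hsd3b1, Hsd3b6, Hsd17b3, Insl3 and Lhcgr), each 300 bases long. The letters AGGTCA, on either strand, were in 2 of the 7 and in 16.3% of 32851 promoters. The letters CAAGGNC, searched after the promoters had been read, were in 1 of the 7 and in 17.8% of all promoters, and TATAAA was in 0 of the 7 and in 13.6%. The AGGTCA match of Lhcgr lay 122 bases upstream of the start site, and that of Cyp11a1 lay 28 bases upstream of its downstream start site. Insl3 held CAAGGNC at 2 places, 137 and 57 bases upstream. The matched letters are in capitals, for Lhcgr at chr17:88792071-88792196 (minus strand), Cyp11a1 at chr9:58014913-58014940 and Insl3 at chr8:71689055-71689181 and chr8:71689184-71689212 (plus strand).
Lhcgr: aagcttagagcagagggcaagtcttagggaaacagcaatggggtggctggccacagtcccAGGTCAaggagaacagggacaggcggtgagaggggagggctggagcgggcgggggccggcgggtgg
Cyp11a1: aggaaggggggAGGTCAccgctccatca
Insl3 upstream match: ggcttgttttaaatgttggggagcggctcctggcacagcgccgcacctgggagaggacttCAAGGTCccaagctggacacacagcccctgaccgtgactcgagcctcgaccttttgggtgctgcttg
Insl3 downstream match: tgtgttcccgcCAAGGCCcatgggcggcg
A match of letters is a description of the window and not a binding site.

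All 10 genes were well measured, and their levels spanned a wide range. Levels are given in FPKM, read counts scaled for transcript length and sequencing depth, so that they can be compared between genes. Insl3 was the most abundant, with a mean of 1870 FPKM over the 12 libraries, and stood at rank 13 of all genes. It took 60.7% to 77.2% of the summed FPKM of the 10 genes. Cyp17a1 came next with 387 FPKM, followed by Cyp11a1 with 114, Hsd3b1 with 97.4, Star with 60.6, Hsd17b3 with 59.7, Scarb1 with 56.8, Hsd3b6 with 39.1, Nr5a1 with 14.5 and the receptor Lhcgr with 7.84 FPKM. The order of Insl3 over Cyp17a1 over Cyp11a1 held in 12 of 12 libraries, and so did that of Scarb1 over Hsd3b6 over Nr5a1 over Lhcgr. Cyp11a1 was above Hsd3b1 in only 7 libraries, Star above Hsd17b3 in 6 and Hsd17b3 above Scarb1 in 6, so these neighbours did not differ beyond their spread. Hsd3b1 was above Hsd3b6 by 1.63-fold to 3.69-fold (median 2.44). The other Hsd3b genes of the table were near 0 (Hsd3b2, Hsd3b3 and Hsd3b5 at most 0.12 FPKM), save Hsd3b7, the bile acid enzyme of the family, at 1.87 to 3.61 FPKM.

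Totals of estimated counts per library were 15431383 to 16355720, a ratio of 1.06, so depth was nearly equal, and the members' estimated counts are what the tests used. The 12 other Leydig cell markers listed, such as Ptgds, Aldh1a1 and Klk1b24, were also in the table, and the list summed to 654 to 1139 FPKM. Hsd11b1 of that list was near 0, at 0.11 to 0.54 FPKM. The spermatid list, the most abundant of the cell type lists, summed to 35169 to 43774 FPKM. Because whole testis was sequenced, fewer Leydig cells and less RNA per Leydig cell cannot be told apart in any value below. RNA of the same genes from other testis cells, such as Sertoli cells, cannot be set apart either. How much of the RNA of each member, Nr5a1 and Scarb1 included, came from Leydig cells was not tested.

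**Figure D1:**
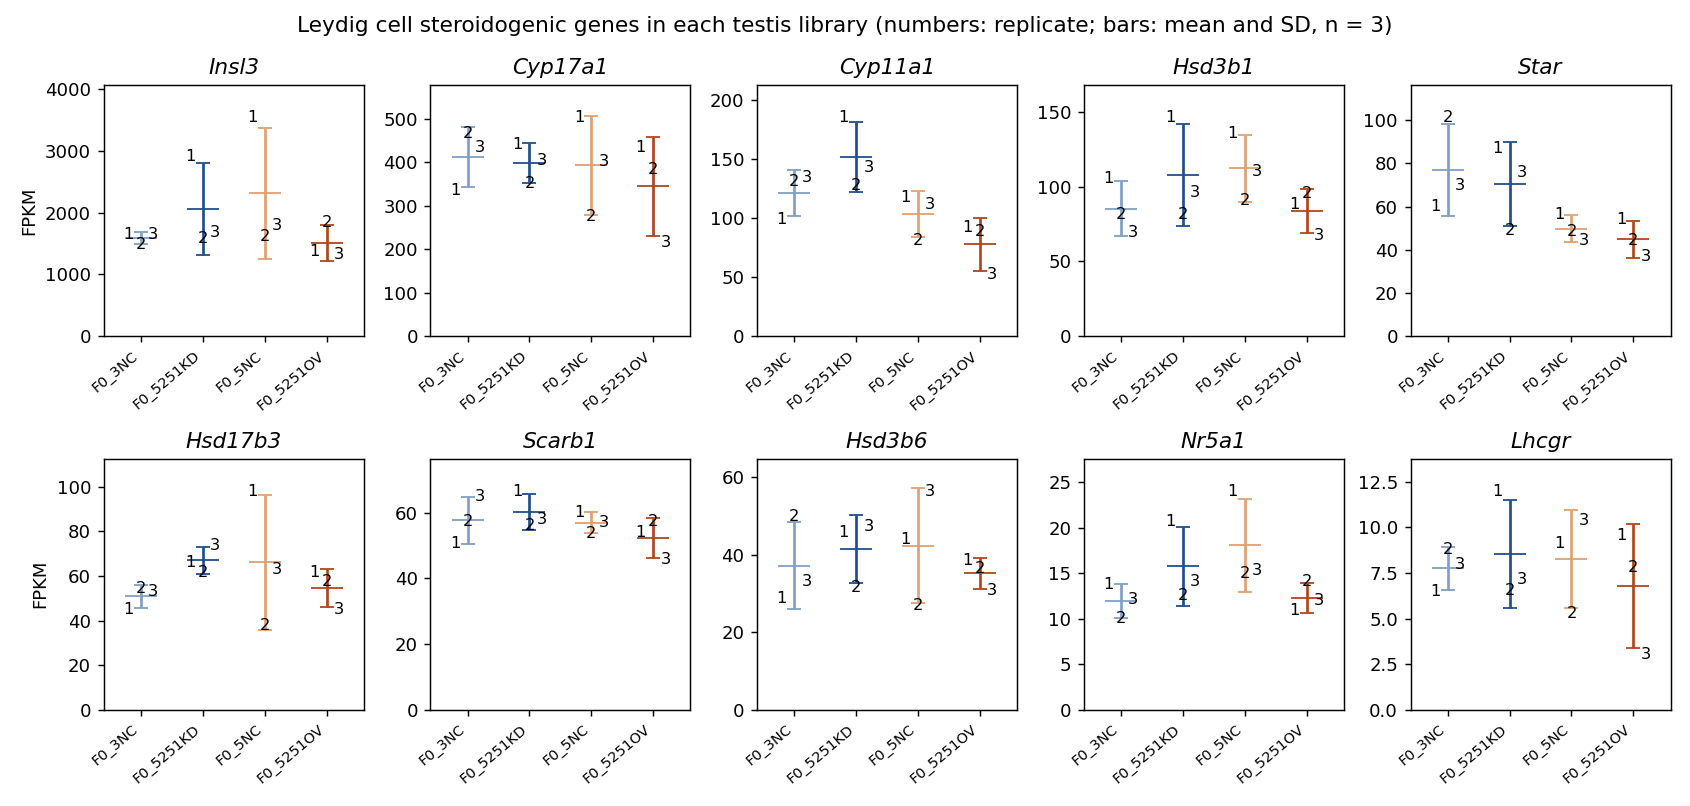
FPKM (vertical axes, from 0) of the 10 genes in each library, by group; the digits mark the replicate number and the bars the mean and SD (n = 3). F0_5251OV replicate 3 is the lowest of all 12 libraries for 7 of the 10 genes, and F0_5251KD replicate 1 and F0_5NC replicate 1 are each the highest for 4.

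Cholesterol delivery is the first step. Star was at 60.1, 101 and 69.7 FPKM in F0_3NC, at 86.9, 49.1 and 75.7 in F0_5251KD, at 56.4, 48.6 and 44.1 in F0_5NC and at 53.8, 44.1 and 36.8 in F0_5251OV (replicates 1, 2 and 3). The 3 libraries of each treated group overlapped those of their own control, but all 3 libraries of F0_3NC lay above all 3 of F0_5NC. Scarb1 was at 50.7, 57.3 and 65.0 FPKM in F0_3NC, at 66.5, 56.0 and 58.1 in F0_5251KD, at 60, 53.6 and 57.2 in F0_5NC and at 53.9, 57.4 and 45.6 in F0_5251OV. Scarb1 was the steadiest of the genes, with its highest library only 1.46 times its lowest.

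The enzyme that cuts the cholesterol side chain varied more. Cyp11a1 was at 99.1, 131 and 135 FPKM in F0_3NC, at 185, 128 and 143 in F0_5251KD, at 118, 81.5 and 112 in F0_5NC and at 92.5, 88.8 and 52.0 in F0_5251OV. F0_5251KD replicate 1 and F0_5251OV replicate 3 were the extremes, 3.57-fold apart, and each treated group overlapped its control. Hsd3b1 was at 105, 81.2 and 69.6 FPKM in F0_3NC, at 146, 81.4 and 96.3 in F0_5251KD, at 135, 91.0 and 110 in F0_5NC and at 88.2, 95.7 and 67.6 in F0_5251OV. Hsd3b6, the isoform of adult Leydig cells, was at 28.6, 49.8 and 33.2 FPKM in F0_3NC, at 45.6, 31.5 and 47.3 in F0_5251KD, at 44.0, 26.8 and 56.3 in F0_5NC and at 38.5, 36.4 and 30.8 in F0_5251OV. For both isoforms the groups of each comparison overlapped.

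The androgen-forming enzymes were as variable. Cyp17a1 was at 335, 467 and 433 FPKM in F0_3NC, at 440, 350 and 403 in F0_5251KD, at 502, 275 and 403 in F0_5NC and at 434, 384 and 216 in F0_5251OV. The group means lay between 344 ± 114 (F0_5251OV) and 412 ± 68.6 FPKM (F0_3NC; SD, n = 3), and all groups overlapped. Hsd17b3 was at 45.1, 54.5 and 53.1 FPKM in F0_3NC, at 65.9, 61.6 and 73.5 in F0_5251KD, at 97.9, 37.7 and 62.8 in F0_5NC and at 61.6, 57.4 and 45.1 in F0_5251OV. All 3 knockdown libraries were above all 3 F0_3NC libraries for Hsd17b3, while the range within F0_5NC alone covered every other library.

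The receptor and the transcription factor were the least abundant. Lhcgr was at 6.47, 8.79 and 7.99 FPKM in F0_3NC, at 11.97, 6.54 and 7.13 in F0_5251KD, at 9.14, 5.28 and 10.39 in F0_5NC and at 9.55, 7.81 and 3.02 in F0_5251OV. Its highest library was 3.96 times its lowest, the widest of the 10. Nr5a1 was at 13.7, 10.01 and 12.1 FPKM in F0_3NC, at 20.7, 12.6 and 14.1 in F0_5251KD, at 23.97, 14.98 and 15.3 in F0_5NC and at 10.9, 14.1 and 11.97 in F0_5251OV. The F0_5NC libraries were the highest as a group and lay above all libraries of F0_3NC and of F0_5251OV.

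Insl3 was at 1655, 1484 and 1650 FPKM in F0_3NC, at 2911, 1581 and 1678 in F0_5251KD, at 3541, 1610 and 1795 in F0_5NC and at 1365, 1848 and 1322 in F0_5251OV. Thus 1 library of F0_5251KD and 1 of F0_5NC stood well above the other 10, which ranged from 1322 to 1848. Insl3 was also the only member whose estimated counts were not whole. Of its 623 exon bases (GENCODE M21), 404 also belong to exons of Jak3 on the same strand, so reads there can be given to either gene. Jak3 was at 1.49 to 3.58 FPKM in the 12 libraries.

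Knockdown of lncRNA5251 gave no change past the threshold in any of the 10 genes. By edgeR's quasi-likelihood test with Benjamini-Hochberg adjustment over 16296 genes, 0 of 10 had an adjusted p under 0.05 in F0_5251KD vs F0_3NC, and 0 of 10 had an unadjusted p under 0.05. DESeq2 and limma also called 0 of 10. The background was 0.0245% of all genes called at the adjusted and 4.74% at the unadjusted threshold. Of the 10 genes, 8 had a higher and 2 a lower estimate, with a median log2 fold change of 0.23 against 0.00 (-0.0045) over all genes tested.

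Hsd17b3 had the highest estimate under knockdown, 0.39 ± 0.22 on the log2 scale (SE; edgeR adjusted p = 0.897), and was the only member whose groups did not overlap, as was so for 10.9% of all genes. Nr5a1 was at 0.38 ± 0.20 (edgeR unadjusted p = 0.0719, adjusted p = 0.897), Insl3 at 0.36 ± 0.26, Hsd3b1 at 0.33 ± 0.20 and Cyp11a1 at 0.31 ± 0.19. Without F0_5251KD replicate 1 these were 0.15 for Nr5a1, 0.037 for Insl3, 0.058 for Hsd3b1 and 0.154 for Cyp11a1. Lhcgr (0.15), Hsd3b6 (0.15) and Scarb1 (0.05) were nearer 0, and Cyp17a1 (-0.06) and Star (-0.14) were below it. The 95% interval for Star ran from -0.58 to 0.30 and that for Insl3 from -0.19 to 0.92. True changes anywhere within these intervals, and none at all, remain compatible with these libraries. The median of the 10 moved from 0.23 to 0.05 without F0_5251KD replicate 1 and to 0.10 without F0_3NC replicate 1, and 6 of 10 estimates were then positive in either case.

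Overexpression gave estimates below 0 for all 10 genes, and none passed the adjusted threshold. In F0_5251OV vs F0_5NC, 0 of 10 were called by edgeR, by DESeq2 and by limma, against 0% of all genes called by edgeR. At an unadjusted p under 0.05 edgeR had 2 of the 10, Nr5a1 and Insl3, against a background of 8.77%. The median log2 fold change of the 10 was -0.22, against -0.00 (-0.002) over all genes.

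Nr5a1 fell short of the adjusted threshold with a log2 fold change of -0.49 ± 0.20 (SE; edgeR unadjusted p = 0.0254, adjusted p = 0.552), from 18.1 ± 5.11 to 12.3 ± 1.65 FPKM (SD, n = 3). Its groups did not overlap, which held for 13.1% of all genes and for no other of the 10. Without F0_5NC replicate 1 the estimate of Nr5a1 was -0.287. Insl3 had the lowest estimate, -0.56 ± 0.26 (edgeR unadjusted p = 0.0494, adjusted p = 0.569), and went to -0.18 without F0_5NC replicate 1. Cyp11a1 and Hsd3b1 were both at -0.37 ± 0.20, with edgeR adjusted p of 0.593 and 0.602, and without F0_5251OV replicate 3 they were at -0.161 and -0.244. The remaining 6 lay between -0.22 and -0.07. Without F0_5251OV replicate 3 the sign turned for 4 of the 10 (Star, Cyp17a1, Lhcgr and Scarb1) and the median was -0.13, and without F0_5NC replicate 2 the median was -0.46 with all 10 below 0.

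**Figure D2:**
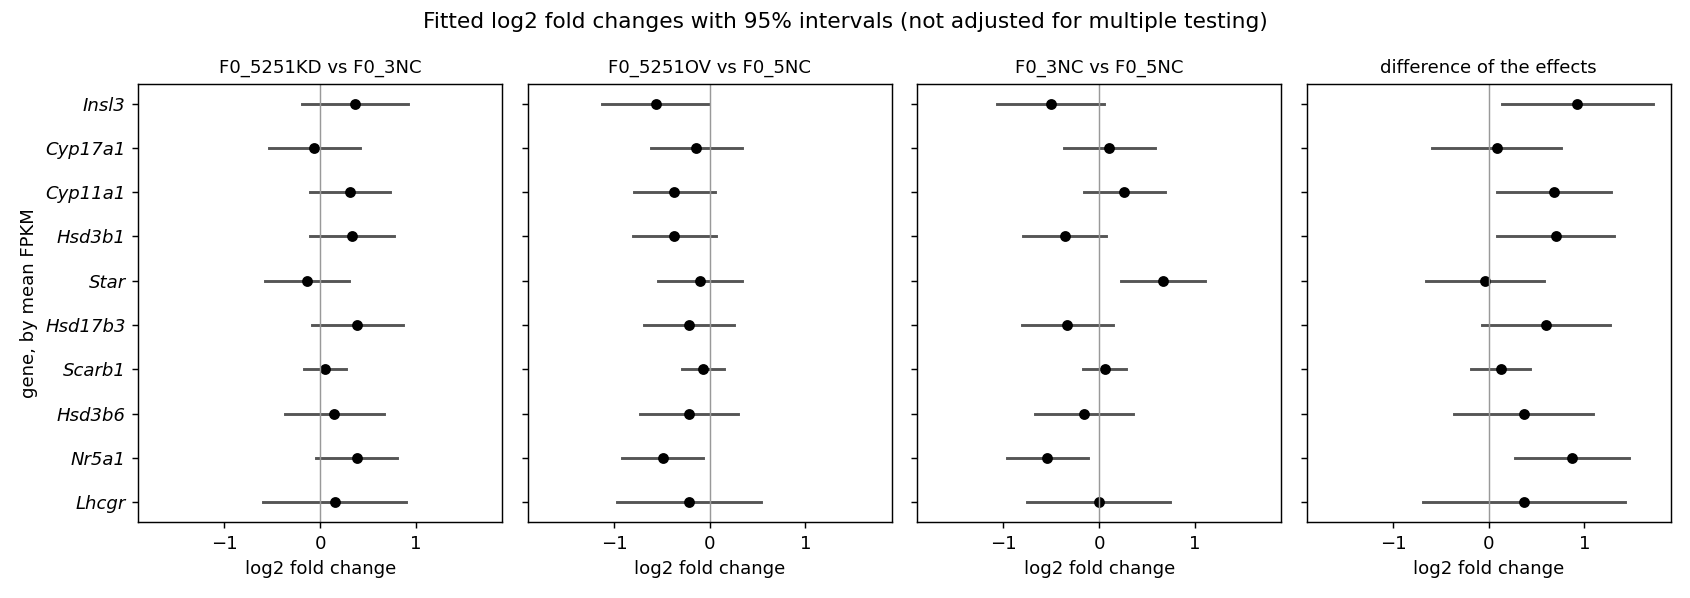
Log2 fold change (horizontal axes) of each gene in the 3 group comparisons and in the difference of the effects; points are edgeR estimates and lines 95% intervals that are not adjusted for multiple testing. All 10 points are left of 0 in F0_5251OV vs F0_5NC, and 8 are right of 0 in F0_5251KD vs F0_3NC.

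The test of the difference between the effects asked whether knockdown and overexpression moved the genes apart. The estimate, knockdown effect minus overexpression effect, was positive for 9 of 10 genes with a median of 0.48 (0.485), against 0.00 (0.0033) for all genes. None of the 10 passed the adjusted threshold by edgeR, DESeq2 or limma, and edgeR called 0% of all genes. At an unadjusted p under 0.05 edgeR had 4 of the 10, against 11.3% of all genes. These were Nr5a1 with 0.87 ± 0.28, Insl3 with 0.93 ± 0.37, Hsd3b1 with 0.70 ± 0.29 and Cyp11a1 with 0.68 ± 0.28 (SE), at edgeR adjusted p of 0.403, 0.42, 0.42 and 0.42. Star was at -0.04 ± 0.29 and Cyp17a1 at 0.08 ± 0.31. This difference uses F0_3NC and F0_5NC as well as the treated groups, and F0_5NC replicate 1, which was high for Insl3 and Nr5a1, enters it: without that library the estimate of Insl3 was 0.56. Without F0_5251KD replicate 1 that of Hsd3b1 was 0.419.

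Between the 2 control groups Star had the highest estimate of the 10 genes, and it did not pass the adjusted threshold. In F0_3NC vs F0_5NC Star was at 0.67 ± 0.20 on the log2 scale (77.0 ± 21.5 against 49.7 ± 6.23 FPKM, SD, n = 3), with an edgeR unadjusted p of 0.00582 and an adjusted p of 0.281. Without F0_3NC replicate 2, the highest library for Star, it was 0.439. Nr5a1 had the lowest estimate in the same comparison, at -0.54 ± 0.20 (11.9 ± 1.87 against 18.1 ± 5.11 FPKM; edgeR unadjusted p = 0.0155, adjusted p = 0.346), and at -0.341 without F0_5NC replicate 1. Both genes had groups that did not overlap, as had 15.9% of all genes. Again 0 of 10 were called by edgeR, DESeq2 or limma, while 0.331% of all genes were called by edgeR, and 2 of 10 had an unadjusted p under 0.05 against 11.9%. Of the 10 genes, 4 were higher and 6 lower in F0_3NC, with a median of -0.08 that turned to 0.10 without F0_5NC replicate 3 and to 0.07 without F0_3NC replicate 1.

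The place of Star within its pathway was also compared between the 2 controls. When each gene was set against the mean log2 level of the other 9 in the same library, Star stood at 1.32 ± 0.29 in F0_3NC and at 0.54 ± 0.33 in F0_5NC (log2 units, SD, n = 3), with no overlap. Cyp11a1 stood at 0.70 ± 0.18 and 0.34 ± 0.12, also with no overlap. The only other value of this kind without overlap was Hsd3b1 in F0_5251OV vs F0_5NC, at 0.395 ± 0.088 and 0.501 ± 0.070 (closest libraries both at 0.458 after rounding). The exact two-sided permutation p was 0.1 for each, the smallest that 3 against 3 libraries allow, and 0.692 after adjustment over the 30 values of this kind. In F0_5251KD Star stood at 0.96 ± 0.21 and in F0_5251OV at 0.73 ± 0.18.

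Variation between libraries of the same group was larger for these genes than for most. The within-group SD of log2 CPM, the count scaled for library total, was 0.29 to 0.56 for 9 of the 10 genes. For these 9, between 96.5% and 99.3% of genes of like level (mean within 0.5 on the log2 scale) had a lower SD. Scarb1 was the exception with an SD of 0.14, above 65.7% of genes of like level. Lhcgr had the highest SD, 0.56. Much of the spread was shared, since F0_5251OV replicate 3 was the lowest of its group for 9 of 10 genes, F0_5NC replicate 2 for 9 and F0_5251KD replicate 2 for all 10. F0_5251KD replicate 1 was the highest of its group for 8 genes, and so was F0_5NC replicate 1. The mean z over the 10 genes, in SDs of each gene over the 12 libraries, was 1.29 in F0_5251KD replicate 1 and -1.50 (-1.505) in F0_5251OV replicate 3.

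**Figure D3:**
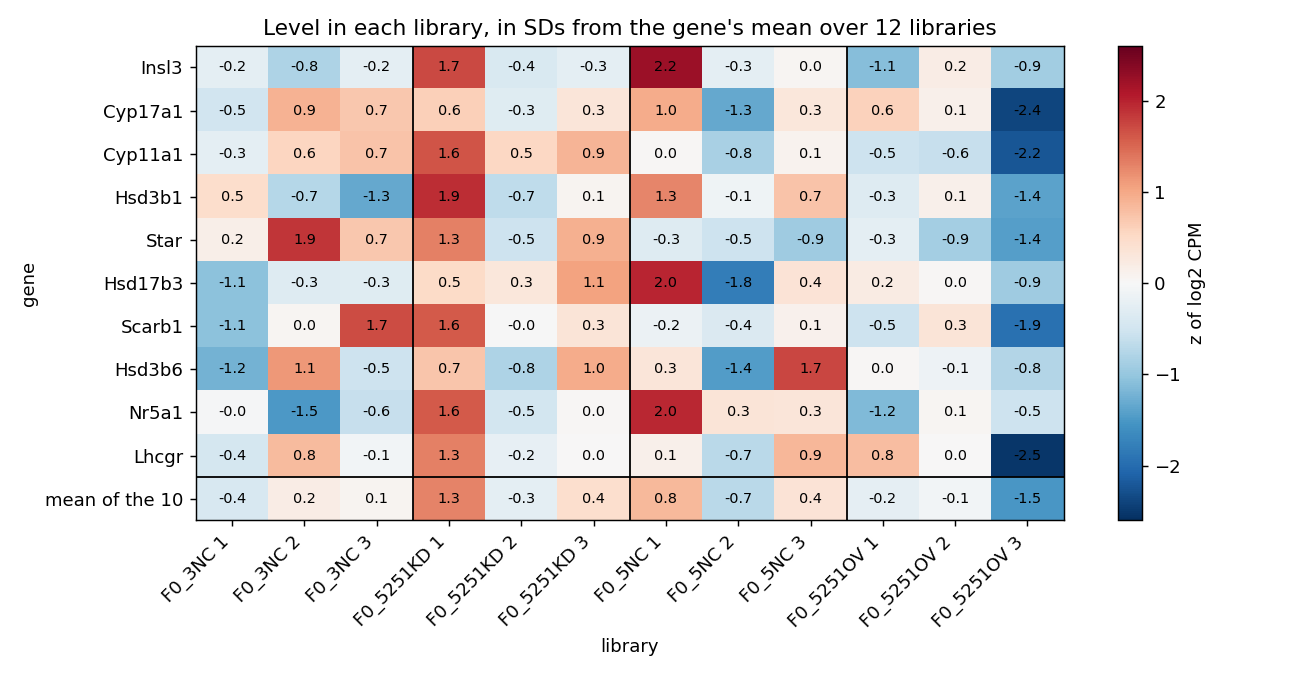
Level of each gene (rows) in each library (columns), as the number of SDs of log2 CPM from the mean of that gene over 12 libraries; the bottom row is the mean of the 10 genes. F0_5251KD replicate 1 is above 0 and F0_5251OV replicate 3 below 0 for every gene.

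The genes varied together to different degrees. Over the 12 libraries the 45 pairs had a median Pearson r of 0.47 (0.469), from -0.09 (Star with Nr5a1) to 0.94 (Insl3 with Nr5a1), and 19 pairs were above 0.5. After Benjamini-Hochberg adjustment of permutation p over the 45 pairs, 8 pairs passed by r, 3 by Spearman's rho and 2 by both. These 2 were Insl3 with Nr5a1 (r = 0.936, permutation p = 4e-05, adjusted p = 0.0018, rho = 0.79, permutation p = 0.003, adjusted p = 0.045) and Hsd3b1 with Nr5a1 (r = 0.829, permutation p = 0.0009, adjusted p = 0.01, rho = 0.818, permutation p = 0.0022, adjusted p = 0.045). Without the 2 libraries farthest from the median of the first gene, r was 0.793 and 0.803. As deviations from the group means, which take out any difference between groups, r was 0.93 and 0.744.

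A looser group held Cyp11a1, Cyp17a1, Lhcgr and Scarb1. Cyp17a1 with Lhcgr had r = 0.877 (permutation p = 0.0005, adjusted p = 0.01) and rho = 0.713 (permutation p = 0.011, adjusted p = 0.077), and r fell to 0.571 without F0_5251OV replicate 3 and F0_5NC replicate 2. Cyp11a1 with Lhcgr had r = 0.769 (permutation p = 0.0061, adjusted p = 0.034) and rho = 0.538 (permutation p = 0.075, adjusted p = 0.2), and r was 0.195 without F0_5251KD replicate 1 and F0_5251OV replicate 3, so the relation rests on those libraries. Star went with Cyp11a1 at r = 0.763 (permutation p = 0.0031, adjusted p = 0.024; rho = 0.72, permutation p = 0.011, adjusted p = 0.077) and kept r = 0.75 without its 2 farthest libraries. The 2 sister enzymes Hsd3b1 and Hsd3b6 had r of only 0.38 over the same libraries.

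**Figure D4:**
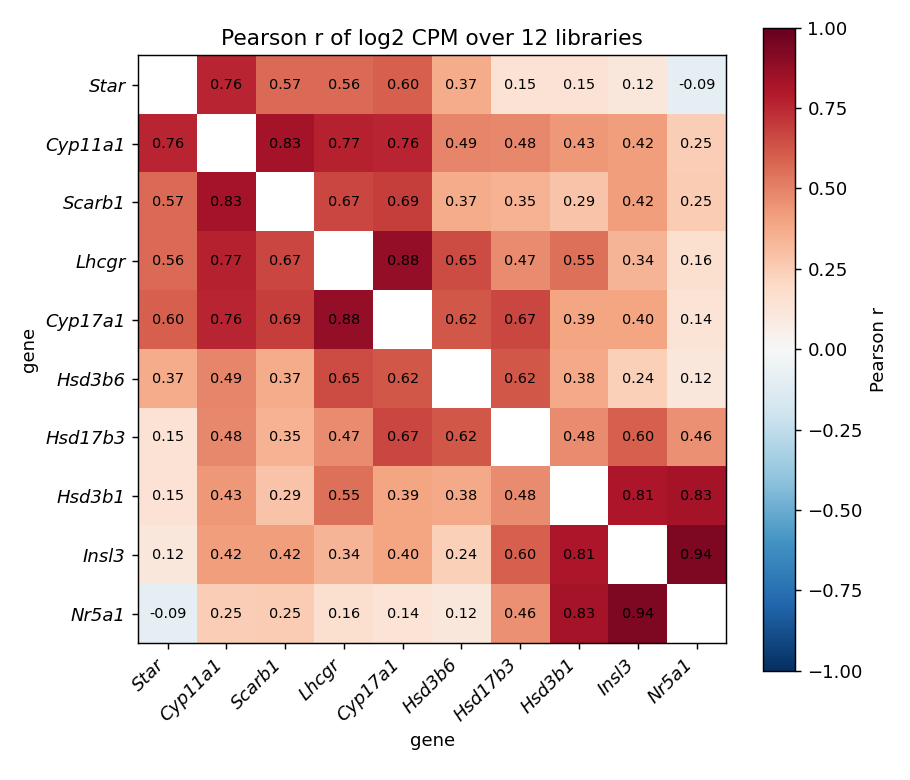
Pearson r of log2 CPM over 12 libraries for each pair of the 10 genes (both axes list the genes); the colour and the printed value give r. Insl3, Nr5a1 and Hsd3b1 form the tightest corner, with r from 0.811 to 0.936, and Star with Nr5a1 is the only pair below 0.

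Of 15157 other genes, all averaging 1 CPM or more, 113 had r above 0.8 with the mean z of the 10 genes over the 12 libraries. Given as a description, the most alike included Acadm (r = 0.936), Tmem164 (0.932), Hexim1 (0.931), Akr1cl (0.93), Zwint (0.927), Rnh1 (0.924), Scd2 (0.922), Ece1 (0.916) and Spon1 (0.906). Akr1cl was the most abundant of them at 125 FPKM and belongs to the aldo-keto reductases, and Acadm is an enzyme of fatty acid oxidation and Scd2 a fatty acid desaturase. None of these was called by edgeR in any comparison. Their log2 fold changes were 0.03 (Rnh1) to 0.38 (Spon1) in F0_5251KD vs F0_3NC and -0.34 (Ece1) to -0.13 (Acadm) in F0_5251OV vs F0_5NC.

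Other genes of the pathway gave no called change in the treated groups. Of the 14 other steroid enzymes and electron donors, 13 were tested, and 0 were called by edgeR in any comparison. In F0_5251KD vs F0_3NC 8 were higher and 5 lower (median 0.06), with Fdxr, the reductase that feeds electrons to Cyp11a1, highest at 0.22 and Akr1b7 lowest at -0.44. In F0_5251OV vs F0_5NC 4 were higher and 9 lower (median -0.07), from Akr1b7 (-5.12) to Hsd17b1 (0.45). In F0_3NC vs F0_5NC 5 were higher and 8 lower (median -0.19), from Akr1b7 (-5.44, edgeR adjusted p = 0.0871) to Hsd17b7 (0.74). Akr1b7, an aldo-keto reductase of the adrenal and the male tract, was at 10.49 and 70.27 FPKM in F0_5NC replicates 1 and 2 and between 0.29 and 1.04 FPKM in the other 10 libraries, so its folds rest on those 2 libraries. Hsd17b1 was near 0, with 8 estimated counts in F0_3NC replicate 1. Fdx1, the electron carrier of Cyp11a1, was at 45.3 ± 7.77, 41.0 ± 5.55, 35.1 ± 4.06 and 34.4 ± 5.15 FPKM in F0_3NC, F0_5251KD, F0_5NC and F0_5251OV (SD, n = 3).

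All 12 genes of cholesterol supply were tested. In F0_5251KD vs F0_3NC 8 were higher and 4 lower (median 0.05), from Stard4 (-0.17) to Abca1 (0.55), and in F0_5251OV vs F0_5NC 4 were higher and 8 lower (median -0.13), from Npc2 (-0.28) to Stard4 (0.13), with 0 called by edgeR in either. In F0_3NC vs F0_5NC 4 were higher and 8 lower (median -0.05), and Npc2 was lowest at -0.39. Of the 15 genes of luteinizing hormone signalling and of steroidogenic transcription factors, 0 were called by edgeR in any comparison. Their medians were -0.00 (-0.0013) under knockdown, -0.02 under overexpression and 0.03 between the controls. Cebpb was the highest under knockdown (0.63) and between the controls (1.0026), Lhx9 the lowest under knockdown (-0.16) and Nr2f2 the lowest between the controls (-0.91, edgeR adjusted p = 0.0639). Under overexpression Nr0b1, a repressor of Nr5a1, was lowest at -0.35 and Crem highest at 0.09.

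Leydig cell markers outside the 10 genes did not share their direction between groups, but varied with them over the libraries. Their r with the mean z of the 10 genes over the 12 libraries was 0.219 to 0.723 (median 0.457). The median was -0.043 for all genes tested and 0.485 for the cholesterol supply list. Of 11 tested, 4 were higher and 7 lower under knockdown (median -0.12), and 6 were higher and 5 lower under overexpression (median 0.05), with 0 called by edgeR in either. Ptgds was highest under knockdown (0.79) and Klk1b27 lowest (-0.85), and under overexpression Klk1b27 was highest (0.91) and Pdgfra lowest (-0.34). In F0_3NC vs F0_5NC 7 were higher and 4 lower (median 0.15), with Klk1b27 at 0.56 and Ptgds at -0.76 as the ends and 0 called. Klk1b21, Klk1b24 and Klk1b27 are close copies, so their counts are uncertain.

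**Figure D5:**
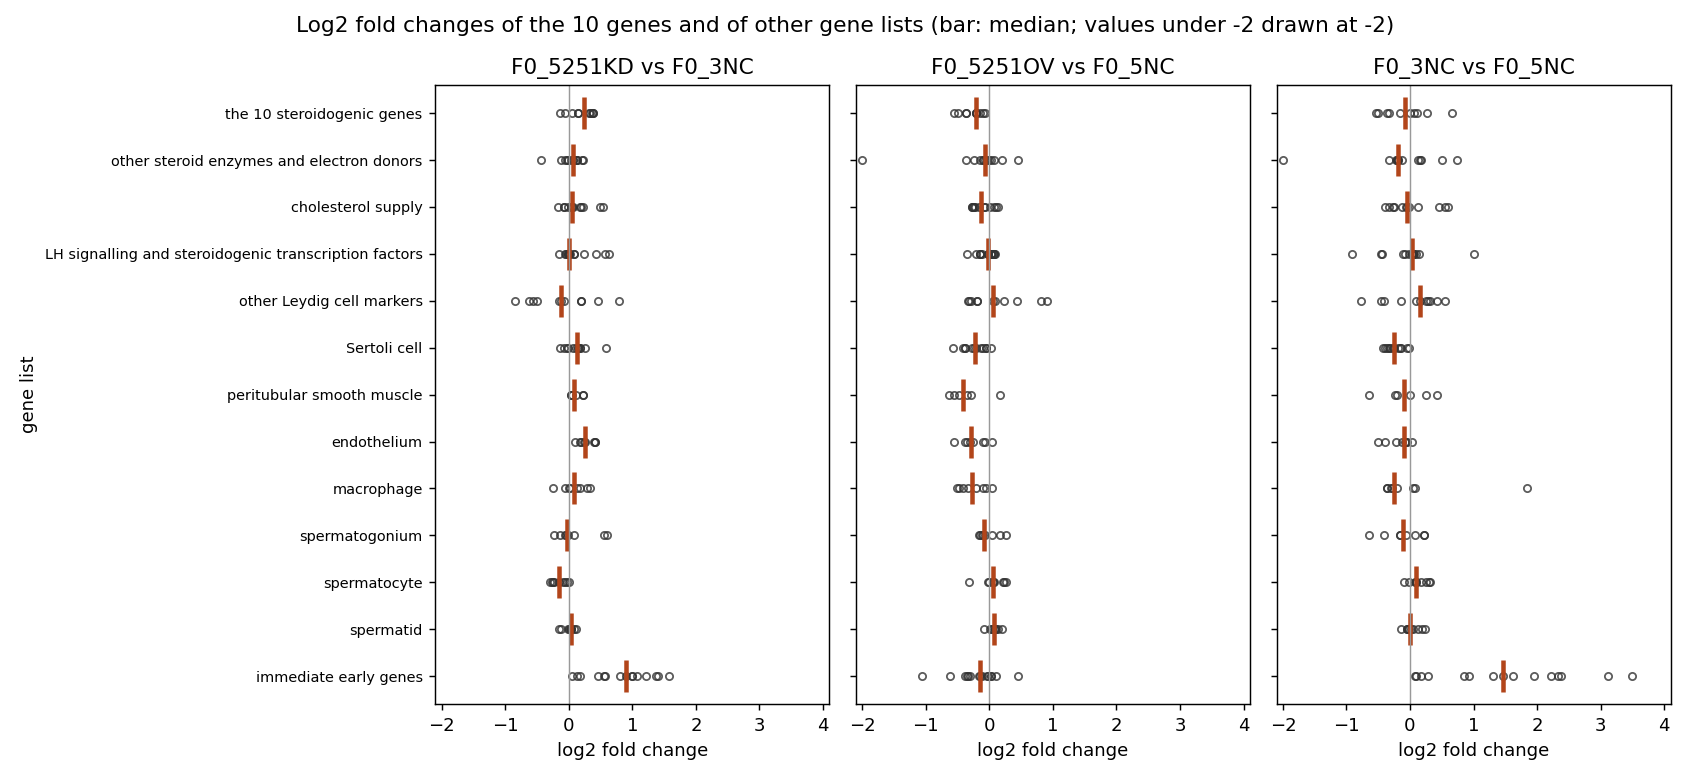
Log2 fold change (horizontal axes, edgeR) of each gene of the 10 and of 12 other lists (rows) in 3 comparisons; circles are genes, the bar is the median, and values under -2 are drawn at -2. The medians of the 10 genes and of the steroid enzyme, cholesterol supply, Sertoli cell, smooth muscle, endothelium, macrophage and immediate early lists are right of 0 under knockdown and left of 0 under overexpression. The immediate early genes stand far right in F0_5251KD vs F0_3NC and F0_3NC vs F0_5NC.

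Markers of other somatic cells also had mostly negative estimates under overexpression. Of 12 Sertoli cell genes 11 were below 0 (median -0.23), of 6 peritubular smooth muscle genes 5 (median -0.42), of 8 endothelial genes 7 (median -0.29) and of 8 macrophage genes 7 (median -0.28), with 0 called by edgeR in each list. The lowest of each list were Sox9 (-0.57), Des (-0.63), Cdh5 (-0.55) and Cd68 (-0.50), and the highest Cst9 (0.02), Actg2 (0.165), Flt1 (0.04) and Mrc1 (0.04). The summed FPKM of the Sertoli list was 788 to 1145 in F0_5NC and 721 to 761 in F0_5251OV, that of the endothelium list 10.6 to 12.3 and 8.88 to 9.82, that of the macrophage list 46.0 to 74.6 and 44.2 to 49.2, and that of the smooth muscle list 227 to 262 and 242 to 267. Actg2, the only smooth muscle gene above 0, made up most of that last sum (means of 210 and 229 FPKM). The sum therefore says little of the other 5 genes, which were below 0. F0_5NC replicate 1 was the highest of its group for the Sertoli list (1145, against 843 and 788 in replicates 2 and 3). It was also the highest for the macrophage list (74.6, against 53.3 and 46.0) and the endothelium list (12.3). For the smooth muscle sum it was the lowest (227), which follows Actg2 (185, against 230 and 214). Acta2 (20.9), Myh11 (7.34) and Des (2.57) were highest of their group in replicate 1, and Tagln (8.95) and Cnn1 (1.69) were not. No gene of these lists was at 0 in all libraries. Their part in the result was not tested. F0_5NC replicate 1 was also the highest of all libraries for Nr5a1, and likewise for Cyp17a1, Hsd17b3 and Insl3. Whether Sertoli cells gave part of the RNA of Nr5a1 or of any other member was not tested.

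Under knockdown 8 of 12 Sertoli cell genes (median 0.13), 6 of 6 smooth muscle genes (median 0.08), 8 of 8 endothelial genes (median 0.25) and 6 of 8 macrophage genes (median 0.08) were above 0, again with 0 called by edgeR. The ends of the lists were Wt1 (-0.14) and Cst9 (0.58), Tagln (0.03) and Des (0.23), Emcn (0.09) and Tek (0.42), and Cd14 (-0.24) and Cd68 (0.33). The endothelium list summed to 9.15 to 9.59 FPKM in F0_3NC and 11.01 to 11.68 in F0_5251KD. The other lists overlapped between the groups, save smooth muscle at 229 to 249 and 250 to 257 FPKM. Most of the smooth muscle sum was Actg2, at 197.8 to 214.5 FPKM in F0_3NC and 210.3 to 217.6 in F0_5251KD. In F0_3NC vs F0_5NC 12 of 12 Sertoli genes were lower (median -0.26), from Clu (-0.42) to Rhox5 (-0.01), as were 7 of 8 endothelial genes (Kdr -0.51, Flt1 0.03), 5 of 8 macrophage genes (Cd68 -0.37, Cd14 1.85) and 3 of 6 smooth muscle genes (Des -0.65, Tagln 0.42), with 0 called. Their part was not tested.

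Germ cell lists gave 0 called genes by edgeR in all comparisons. Of 10 spermatid genes 7 were higher under knockdown (median 0.03, Spaca1 -0.16 to Odf1 0.12), 9 under overexpression (median 0.08, Tnp2 -0.08 to Spaca1 0.20) and 5 between the controls (median -0.00, -0.0018, Tnp2 -0.14 to Spaca1 0.23). Of 9 spermatocyte genes 1 was higher under knockdown (median -0.15, Sycp1 -0.30 to Tex101 0.01), 6 under overexpression (median 0.06, Spo11 -0.32 to Hormad1 0.26) and 7 between the controls (median 0.10, Ccna1 -0.10 to Hormad1 0.32). Of 8 spermatogonium genes 3 were higher in each of these comparisons, with medians of -0.03, -0.09 and -0.12, and with Stra8 (-0.23) and Nanos3 (0.60), Kit (-0.16) and Gfra1 (0.25), and Nanos3 (-0.65) and Gfra1 (0.23) as the ends.

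Immediate early genes are transcribed within minutes of a stimulus or of tissue handling, and some passed the threshold. All 15 had estimates above 0 under knockdown (median 0.91), and 4 were called by edgeR, Btg2 (1.37, adjusted p = 0.00856), Egr1 (1.07, 0.0202), Zfp36 (0.91, 0.0223) and Fos (1.58, 0.0328), while Klf4 was lowest at 0.06. They are the 4 genes called in that comparison among all 16296. All 15 were also above 0 in F0_3NC vs F0_5NC (median 1.47), with 8 called by edgeR, Egr1 (3.49), Egr2 (3.11), Btg2 (2.38), Ier3 (2.32), Fos (1.94), Junb (1.63), Zfp36 (1.47) and Dusp1 (0.93), and Klf4 again lowest (0.07). Under overexpression 4 were higher and 11 lower (median -0.15, Fos -1.06 to Fosb 0.45), with 0 called. The list summed to 135 to 149 FPKM in F0_3NC, 213 to 241 in F0_5251KD, 86.9 to 94.4 in F0_5NC and 73.3 to 95.6 in F0_5251OV, the same order of the controls as for Star. Under knockdown, where the list was also higher, Star was at -0.14. Between the controls 4 of the 10 genes were higher in F0_3NC and 6 lower. The part of the list in these values was not tested.

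Adrenal, epididymal and fat markers varied by library. Of the 5 adrenal cortex genes, Mc2r, Cyp11b1 and Cyp11b2, which define the adrenal, were at 0.23 FPKM or less in every library, and the list, which shares Akr1b7 with the steroid enzymes, summed to 4.36 to 80.7 FPKM. Cyp21a1, the adrenal hydroxylase of the list, was at 7.62, 3.61 and 4.05 FPKM in F0_3NC, at 24.4, 24.8 and 3.84 in F0_5251KD, at 20.25, 10.23 and 10.03 in F0_5NC and at 5.88, 5.89 and 7.44 in F0_5251OV, and was not called by edgeR (1.78 under knockdown, -1.01 under overexpression, -1.36 between the controls). Of the 6 epididymis genes measured, 2 were tested, and Spink8 was lower in F0_3NC than in F0_5NC (-3.785, edgeR adjusted p = 0.0235) beside Crisp1 (-4.70, adjusted p = 0.184). Under knockdown Spink8 was at -0.87, and Crisp1 had only 2, 1 and 1 estimated counts in F0_5251KD against 5, 20 and 90 in F0_3NC, so no fold is given. Under overexpression Spink8 was at -0.85 and Crisp1 at -0.825. The list summed to 1.30 to 8.35, 1.25 to 1.58, 15.1 to 101 and 3.80 to 66.6 FPKM in F0_3NC, F0_5251KD, F0_5NC and F0_5251OV, and Spag11b was at 0 in all libraries. Of the 5 adipocyte genes 4 were tested, and the only called was Plin1, lower in F0_3NC than in F0_5NC (-1.46, adjusted p = 0.0219). Plin1 was highest under knockdown (1.40), Fabp4 lowest under overexpression (-1.55), and Adipoq was at -0.02, 0.22 and 0.14 in the 3 comparisons. The adipocyte list summed to 14.2 to 21.9, 18.6 to 45.4, 14.8 to 39.0 and 14.8 to 18.8 FPKM in the same order of groups. The part of these cells in the values of the 10 genes was not tested.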

How the data were processed

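Testis RNA of 12 mouse libraries (4 groups of 3) had been enriched for messenger RNA with oligo(dT), primed with random hexamers, sequenced on an Illumina HiSeq 2500 and aligned with SOAPaligner 2.20, and per the submitters' processing notes the build was mm10. No step that keeps the strand is named, so overlapping genes cannot be told apart by strand. The authors deposited 1 table of 20718 genes, in which every library has a column of estimated counts and another of FPKM. Of the estimated counts deposited by the authors 12% were not whole (tolerance 1e-06). They were rounded here. FPKM values deposited by the authors were used for levels. A further 18 per-sample columns, whose names fit none of the samples here, and the columns of group averages were left out.

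The main test was edgeR 4.0.16 in R 4.3.3 (quasi-likelihood test, two-sided, after TMM scaling with factors of 0.97 to 1.078 and filterByExpr). All 12 libraries entered 1 fit with 8 residual degrees of freedom, adjusted over the 16296 genes kept. All 10 members were kept. The study's methods name DEGseq, which does not use the spread between libraries and was not run. Other settings were upper-quartile scaling, DESeq2 1.42.0, no filter, at least 1 CPM in 3 libraries, limma 3.58.1 on log2(FPKM + 1) and log2(FPKM + 0.1), a block for the replicate number, fits of only the groups compared, and leaving out each library. The scripts were tested on simulated data. Log2 CPM used a prior count of 1. Pairs of genes were tested with 100000 permutations of the libraries, which bounds p from below.

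Named genes were the 10 members, every called gene and the highest and lowest estimate of each other list, and the 10 genes most like the members. A few genes that this rule names are not reported here. Jak3, the other Hsd3b genes, Fdx1 and the promoter letters CAAGGNC were added after the values or sequences were seen. Members and lists were chosen with earlier results of these data known. Library pairs of a group differed by a chi-square per gene of 3.73 to 20.2, so none was the same within sampling noise. Coordinates and promoters are from RefSeq (GRCm38.p6), and coding sequences from GENCODE M21.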

Additional observations from a re-analysis of the deposited data

How the results depend on the processing

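The number of the 10 genes called was 0 in every comparison under all alternatives run (DESeq2, upper-quartile scaling, no filter, at least 1 CPM in 3 libraries, limma with either pseudocount, the compared groups alone, the block and each left-out library). Of 610 log2 fold changes of single members under an alternative, 577 kept their sign and 33 turned, of which 31 came from leaving out a library. The other 2 were Star in the difference of the effects, at 0.025 and 0.026 by limma on log2(FPKM + 1) and log2(FPKM + 0.1), against -0.04 by edgeR. The lowest adjusted p of any member was 0.104 (Star in F0_3NC vs F0_5NC by DESeq2). Over all genes the calls of edgeR and DESeq2 were 4 and 20 under knockdown, 0 and 29 under overexpression, 54 and 131 between the controls and 0 and 34 for the difference. limma on log2(FPKM + 1) gave 2, 0, 42 and 1 and on log2(FPKM + 0.1) 0, 0, 37 and 0. Without a filter, and with the compared groups alone, overexpression gave 3 calls. With a library left out the counts ran from 0 to 4, from 0 to 1, from 30 to 54 and from 0 to 1.

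With a library left out, the median log2 fold change of the 10 ran from -0.46 to -0.127 under overexpression and from 0.356 to 0.7 for the difference of the effects. Single members that turned sign in that way had these ranges. Under knockdown Star ran from -0.306 to 0.093, Cyp17a1 from -0.19 to 0.025, Hsd3b6 from -0.011 to 0.4, Lhcgr from -0.138 to 0.364 and Scarb1 from -0.036 to 0.158. Under overexpression Star ran from -0.237 to 0.014, Cyp17a1 from -0.326 to 0.094, Hsd3b6 from -0.444 to 0.069, Hsd17b3 from -0.476 to 0.124, Lhcgr from -0.593 to 0.138 and Scarb1 from -0.146 to 0.006. Between the controls Cyp17a1 ran from -0.074 to 0.268, Hsd3b6 from -0.406 to 0.13, Hsd17b3 from -0.594 to 0.003, Lhcgr from -0.215 to 0.219 and Scarb1 from -0.049 to 0.148. For the difference Star ran from -0.214 to 0.185 and Cyp17a1 from -0.154 to 0.266.

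With the replicate block the medians were 0.211, -0.239, -0.068 and 0.478, and the calls over all genes 2, 0, 50 and 0. Libraries with the same number had correlations of -0.184 to 0.079 of their deviations from the group means, which gave no sign of pairing by number. With 3 libraries a group, a weak pairing could be missed. With 3 libraries a group and the spread of these genes, 95% intervals were wide, and differences of the sizes seen were not detectable as changes.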
